A study of Homo sapiens with 4 samples.

Results

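Caveolae and the MAL family of raft proteins were examined in MDA-MB-231, an established human cell line from a triple-negative breast cancer, after knockdown of AXL. The group held 10 genes of the 63677 in the deposited table. They were MALL, MAL, MAL2 and PLLP of the MAL family, the caveolins CAV1 and CAV2, the cavins PTRF, SDPR and PRKCDBP, and EHD2. The genes were found by symbol, and each symbol had a single row. MALL was selected on its rise in siAXL in these same libraries, so its difference is given as a description with no test. The other 9 genes were chosen by family, with earlier results of these data known.

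The study compared cells transfected with a control siRNA (siCt, 2 libraries) with cells transfected with a pool of siRNAs against the receptor tyrosine kinase AXL (siAXL, 2 libraries), to obtain the expression changes that follow AXL depletion. The labels name the line MDA-MB-231, while the methods list its luciferase derivative MDA-MB-231-Luc. The time between transfection and RNA extraction was not given in the sources used here. Because the siRNAs were pooled, the contributions of single siRNAs cannot be told apart, and nothing states that the 2 libraries of a group came from separate cultures, so the p-values measure a spread that may be technical.

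Caveolae are small flask-shaped pits of the plasma membrane, rich in cholesterol and sphingolipids. Caveolins, inserted in the inner leaflet, and a peripheral coat of cavins build the pit, and the ATPase EHD2 sits at its neck and holds it at the surface. MAL proteins are small hydrophobic proteins with a MARVEL domain that reside in ordered membrane domains and are best known for sorting cargo to the apical surface of epithelial cells.

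The values are normalized counts, which are reads per gene divided by a size factor of the library, and the libraries held 39574387 to 44585773 reads. AXL itself fell to 26.4% of its siCt level, with a log2 fold change of -1.93 (SE, standard error, 0.0918, limma adjusted p = 0.000585). The mesenchymal markers were abundant, with VIM at 86751 to 99296 normalized counts, CD44 at 33968 to 36518 and ZEB1 at 3075 to 3697. ESR1 and PGR reached at most 3.25 normalized counts. ERBB2 rose from 3089 and 2949 to 3680 and 3536 (log2 fold change 0.26, SE 0.0584, limma adjusted p = 0.0258). EPCAM, an epithelial marker, was not near 0, with 565 and 625 normalized counts in siCt and 711 and 771 in siAXL. Both siAXL values were higher, but the difference did not pass 0.05 (log2 fold change 0.32, SE 0.0905, limma adjusted p = 0.0513). The epithelial cadherin CDH1, at 90.1 and 94.3 normalized counts in siCt, fell to 36.9 and 22.6 in siAXL (log2 fold change -1.64, SE 0.261, limma adjusted p = 0.00847). The part of these epithelial transcripts in the results on the MAL family was not tested.

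In siAXL 4 structural genes of caveolae, CAV1, PTRF, PRKCDBP and EHD2, rose by 1.16 to 1.29 times. The caveolar genes CAV2 (log2 fold change 0.041, limma adjusted p = 0.625) and SDPR (-0.24, limma adjusted p = 0.0540) did not pass the threshold of 0.05. MAL2 and PLLP fell to 51.9% and 58.7% of siCt, and MALL stood at 3.08 times its siCt level. The tests used limma on log2(normalized count + 1), where changes of low genes appear smaller than they are. Calls required an adjusted p (Benjamini-Hochberg, over all 16064 genes tested) under 0.05. Of the 9 genes other than MALL, 8 passed the filter on low counts, and 6 of these were called, 4 higher and 2 lower. Over all genes tested, 18.7% were called, 10.8% as higher and 7.91% as lower in siAXL. Among the 10127 genes at or above the mean level of PLLP, the lowest of the 8, 25.1% were called. This cut is a lower bound only and does not match the far higher levels of CAV1, CAV2, PTRF and EHD2. Scaling by library size alone moved the higher share of all called genes from 57.7% to 46.8%. Under that scaling the members called were again 6, but EHD2 lost its call and SDPR gained one, as lower. Leaving out siAXL 1 lowered the number of calls among the members, and also that over all genes tested. The median log2 fold change of the 8 genes was 0.13, against -0.0022 for all genes tested.

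**Figure D1:**
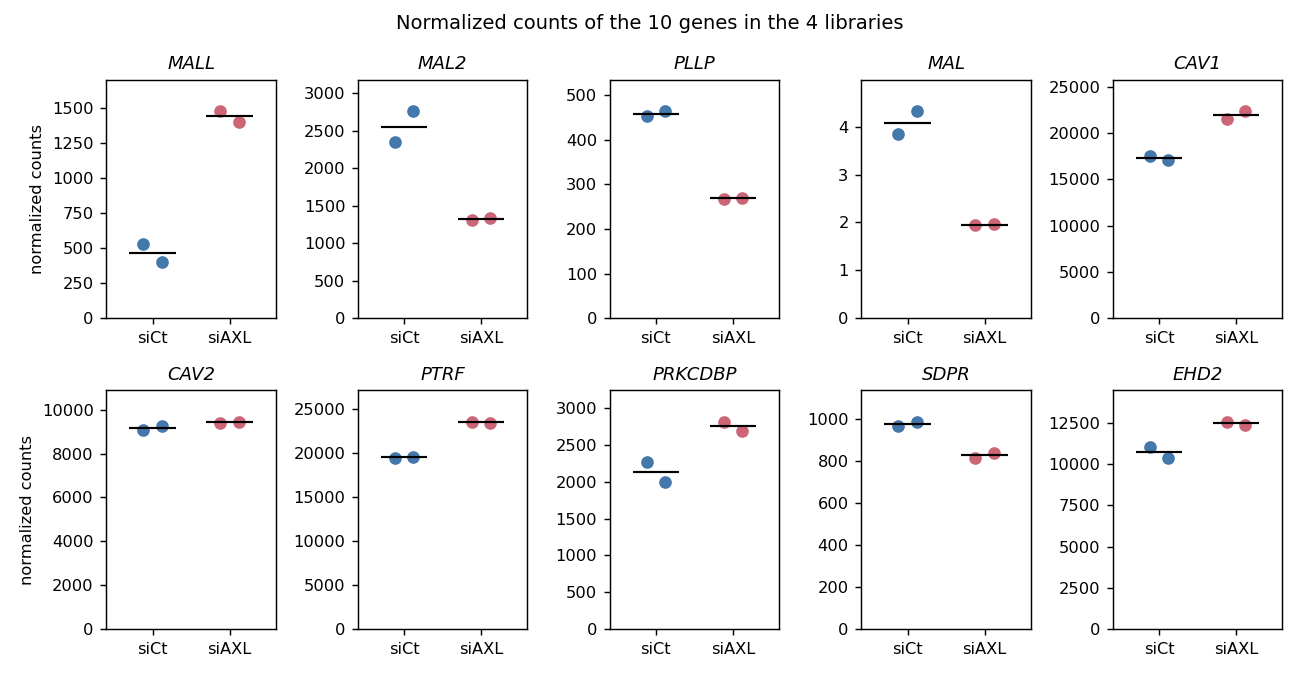
Normalized counts (y axis, from 0, scaled to each gene) of the 10 genes in siCt (blue) and siAXL (red), with a point for each library and a bar for the mean of 2. MAL is at 4.33 or less in every library, and the CAV2 groups lie close together.

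Some reference sequences are shown for MALL and PLLP, of which the first was higher and the second lower in siAXL. The first set is the 7-base word CACATCA in 3′ untranslated regions, a word picked in an earlier analysis of these data after the values had been seen. It was searched in the longest coding transcript of each gene in GENCODE release 29 (GRCh38). Of the 10 genes, MALL, PLLP and EHD2 each held 1 copy. The sites are shown 5′ to 3′ on the transcript with the word in capitals, and positions count from 1 at the first base after the stop codon. They begin at base 277 of 1825 in MALL, 2442 of 6971 in PLLP and 233 of 1702 in EHD2.
MALL: tctagacaactCACATCAaagccctcact
PLLP: ttaataagtgaCACATCAgtacagaaaca
EHD2: gttcacttaggCACATCAcacacacactg
The site of PLLP lies far into the long region of its longest transcript, which was not shown to be the form expressed here. Among the 13007 tested genes with such a region, 1474 (11.3%) held the word. Their median log2 fold change was 0.10, with 65.0% above 0, against -0.0099 and 48.3% in the 11533 genes without it. The regions of carriers were also longer, with a median of 3259 bases against 1133. MALL and EHD2 were higher in siAXL, while PLLP was lower. The part of the word in these differences was not tested.

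The second set is the promoters, taken as the 250 bases before a start site in RefSeq's table (GRCh38.p14). Entries matched 7 of the 10 genes. MAL2, PTRF and PRKCDBP had no entry. They were searched on both strands for CACCTG, an E-box word that the ZEB and SNAIL repressors of epithelial genes bind, and for GGAATG, the core of the TEAD motif. The words do not overlap each other. PLLP held CACCTG once, a word found in 17.5% of 35116 promoters of that length. SDPR held GGAATG once, found in 11.9% of them. Neither word was in the windows of MALL, MAL, CAV1, CAV2 or EHD2. The downstream of the 2 MALL starts (chr2:110115823-110116072, minus strand) and the PLLP start (chr16:57284673-57284922, minus strand) are shown 5′ to 3′, because they belong to the same pair of genes, with the E-box in capitals.
MALL: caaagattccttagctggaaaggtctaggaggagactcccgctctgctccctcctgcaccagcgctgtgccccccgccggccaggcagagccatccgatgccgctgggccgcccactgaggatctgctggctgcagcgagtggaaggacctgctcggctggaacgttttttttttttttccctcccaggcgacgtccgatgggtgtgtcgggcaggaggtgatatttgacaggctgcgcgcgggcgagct
PLLP: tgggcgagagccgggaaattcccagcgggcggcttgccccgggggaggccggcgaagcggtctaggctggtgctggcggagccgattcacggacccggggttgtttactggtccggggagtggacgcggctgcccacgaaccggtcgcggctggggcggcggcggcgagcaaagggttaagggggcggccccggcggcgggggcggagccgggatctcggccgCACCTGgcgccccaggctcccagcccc
A word in such a window is a description of the letters and not a measured site.

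MALL (ENSG00000144063), also known as BENE, is a MAL-like protein that has been found together with caveolin-1 in raft fractions. Its normalized counts were 534 and 403 in the siCt libraries 1 and 2, and 1483 and 1402 in the siAXL libraries 1 and 2. Both siAXL libraries were thus well above both siCt libraries. The mean was 469 ± 92.7 in siCt and 1443 ± 57.2 in siAXL (SD, n = 2 in each), and the log2 fold change was 1.63 (SE 0.131). Leaving out single libraries gave 1.43 to 1.84. In these bulk libraries, more cells with the transcript and more transcript per cell cannot be told apart.

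MAL2 (ENSG00000147676), which acts in the transcytosis of cargo to the apical surface, moved the other way. Its normalized counts were 2343 and 2762 in siCt, and 1309 and 1341 in siAXL. The siCt libraries differed from each other by more than the siAXL libraries did, but both stood above them. The mean fell from 2552 ± 297 to 1325 ± 22.7 (SD, n = 2 in each). The log2 fold change was -0.94 (SE 0.0865, limma adjusted p = 0.00205). The call held under all 13 alternatives, with values from -1.06 to -0.82.

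PLLP (ENSG00000102934) encodes plasmolipin, a MARVEL protein of myelin and of epithelial endosomes. Its normalized counts were 453 and 465 in siCt 1 and siCt 2, and 268 and 270 in siAXL 1 and siAXL 2. The replicates nearly coincided and the groups stood apart. The log2 fold change was -0.77 (SE 0.0934, limma adjusted p = 0.00376), and all 13 alternatives kept the call. In GENCODE, exons of PLLP overlap ARL2BP on the opposite strand, which had 2520 and 2373 normalized counts in siCt and 2750 and 2967 in siAXL (log2 fold change 0.22, limma adjusted p = 0.0575). ARL2BP averaged 2667 reads a library against 363 for PLLP. As the strand setting of the counting was not given in the sources used here, reads of the 2 genes cannot be told apart with certainty where they overlap.

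MAL (ENSG00000172005), the founding member, known from T cells, myelin and polarized epithelia, had 3.84 and 4.33 normalized counts in siCt and 1.94 and 1.97 in siAXL. It did not pass the filter on low counts, so it was not tested, and a difference was not detectable at this depth.

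**Figure D2:**
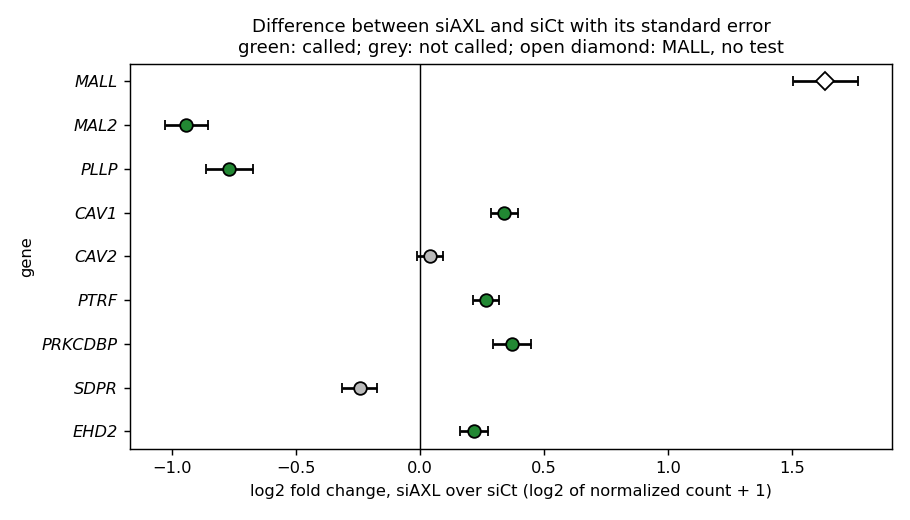
Log2 fold change of siAXL over siCt (x axis, on log2 of normalized count + 1) for the 9 genes above the filter on low counts, with the standard error as bars. MAL2 at -0.94 and PLLP at -0.77 lie far left of 0, MALL at 1.63 far right, and CAV1, PTRF, PRKCDBP and EHD2 between 0.22 and 0.37. CAV2 at 0.041 and SDPR at -0.24 were not called.

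The caveolins form the membrane-embedded scaffold, in which CAV1 is required for caveolae and CAV2 joins it in mixed oligomers. CAV1 (ENSG00000105974) had 17507 and 17121 normalized counts in siCt 1 and siCt 2, and 21462 and 22382 in siAXL 1 and siAXL 2. Its mean rose from 17314 ± 274 to 21922 ± 650 (SD, n = 2 in each). The log2 fold change was 0.34 (SE 0.0553, limma adjusted p = 0.00908), and the call held under all 13 alternatives.

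CAV2 (ENSG00000105971), the neighbour of CAV1 in the genome, had 9068 and 9237 normalized counts in siCt and 9376 and 9459 in siAXL. The groups differed by little, with a log2 fold change of 0.041 (SE 0.0514, limma adjusted p = 0.625). The number of CAV1 counts for each CAV2 count was 1.93 and 1.85 in siCt, and 2.29 and 2.37 in siAXL. On the log2 scale this ratio was 0.30 higher in siAXL (two-sided exact permutation p = 0.333, the smallest that 2 libraries against 2 can give). It was 1 of 2 ratios tested, and the adjusted value was 0.333 in this exact permutation test as well.

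The cavins coat the pit from the cytosol. PTRF (ENSG00000177469), or cavin-1, is required for the formation of caveolae, and had normalized counts of 19427 and 19599.7 in siCt, and of 23579 and 23420.5 in siAXL. The SD between replicates was 122 in siCt and 112 in siAXL (n = 2 in each), far under the difference between the groups. The log2 fold change was 0.27 (SE 0.0528, limma adjusted p = 0.0166). With siAXL 1 or siAXL 2 left out, its adjusted p was 0.0904 and 0.0733.

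PRKCDBP (ENSG00000170955), or cavin-3, links the coat to signalling by protein kinase C delta. It had 2271 and 1994 normalized counts in siCt, and 2819 and 2693 in siAXL. Both siAXL libraries were higher, with a log2 fold change of 0.37 (SE 0.0768, limma adjusted p = 0.0192). Its call was lost with no filter on low counts (adjusted p = 0.0747) and without siAXL 1 (adjusted p = 0.0730), while without siCt 1 or siCt 2 the log2 fold change was 0.47 and 0.28.

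SDPR (ENSG00000168497), or cavin-2, shapes caveolae and varies between tissues. It had 966 and 986 normalized counts in siCt, and 813 and 836 in siAXL. The values were lower in both siAXL libraries, unlike those of the other cavins, but the log2 fold change of -0.24 (SE 0.0705, limma adjusted p = 0.0540) did not pass the threshold. Scaling by library size alone brought it past (adjusted p = 0.0344), with a value of -0.27. PTRF had 20.1 and 19.9 times the counts of SDPR in siCt, and 29 and 28 times in siAXL. The log2 ratio was 0.51 higher in siAXL (two-sided exact permutation p = 0.333, adjusted over the 2 ratios 0.333). This is again the smallest p that 2 libraries against 2 can give, so the test cannot decide whether the ratio differs.

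EHD2 (ENSG00000024422), the ATPase of the caveolar neck, had 11063 and 10408 normalized counts in siCt 1 and siCt 2, and 12599.7 and 12372 in siAXL 1 and siAXL 2. The log2 fold change was 0.22 (SE 0.0565, limma adjusted p = 0.0379). This was the highest adjusted p of the 6 calls. It was lost with no filter on low counts (adjusted p = 0.0955), with scaling by library size alone (0.0539), and without siCt 2 (0.204), siAXL 1 (0.176) or siAXL 2 (0.12), with values from 0.17 to 0.26 over all alternatives.

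Levels were compared per length of the longest coding transcript. In siCt the order, in normalized counts per kb, was CAV1 (5409 ± 85.4), PTRF (5097 ± 31.9), EHD2 (2994 ± 129), CAV2 (2773 ± 36.1), PRKCDBP (1816 ± 167), MAL2 (906 ± 105), SDPR (302 ± 4.47), MALL (153 ± 30.3), PLLP (60.5 ± 1.14) and MAL (3.67 ± 0.317), each ± SD with n = 2. No neighbours in that order overlapped between libraries. In siAXL the order was CAV1 (6848 ± 203), PTRF (6139 ± 29.4), EHD2 (3483 ± 44.9), CAV2 (2853 ± 17.6), PRKCDBP (2348 ± 76.0), MALL (471 ± 18.7), MAL2 (470 ± 8.04), SDPR (255 ± 5.10), PLLP (35.5 ± 0.201) and MAL (1.76 ± 0.0145). MALL thus stood above SDPR and level with MAL2, and the libraries of MALL and MAL2 overlapped. The order depends on the transcript chosen. With the shortest complete coding transcript, a choice added after the values were seen, CAV2 came above EHD2 and PTRF below it in siCt. There MALL was above SDPR in siCt too (438 against 302 counts per kb), but PLLP (690) came above MALL. MAL2 (4454) passed PRKCDBP (2228) in siCt, and stayed above MALL in siAXL.

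As a share of the 4 MAL family genes per kb, MALL made up 16.3% in siCt 1 and 11.2% in siCt 2, and 49.1% in siAXL 1 and 47.2% in siAXL 2. MAL2 made up 77.8% and 83.3% in siCt, and 47.1% and 49.0% in siAXL. The summed level of the family was 1123 ± 76.4 counts per kb in siCt and 979 ± 10.4 in siAXL (SD, n = 2 in each). As MALL was selected on its rise, these shares are a description. With the shortest transcripts the mean share of MALL was 7.84% in siCt and 33.1% in siAXL. The caveolin sum was 8182 ± 49.3 counts per kb in siCt and 9701 ± 221 in siAXL, and CAV1 held 66.1% and 70.6% of it. The cavin sum was 7216 ± 130 and 8742 ± 100 counts per kb. PTRF held 70.7% of the cavin sum in siCt and 70.2% in siAXL.

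**Figure D3:**
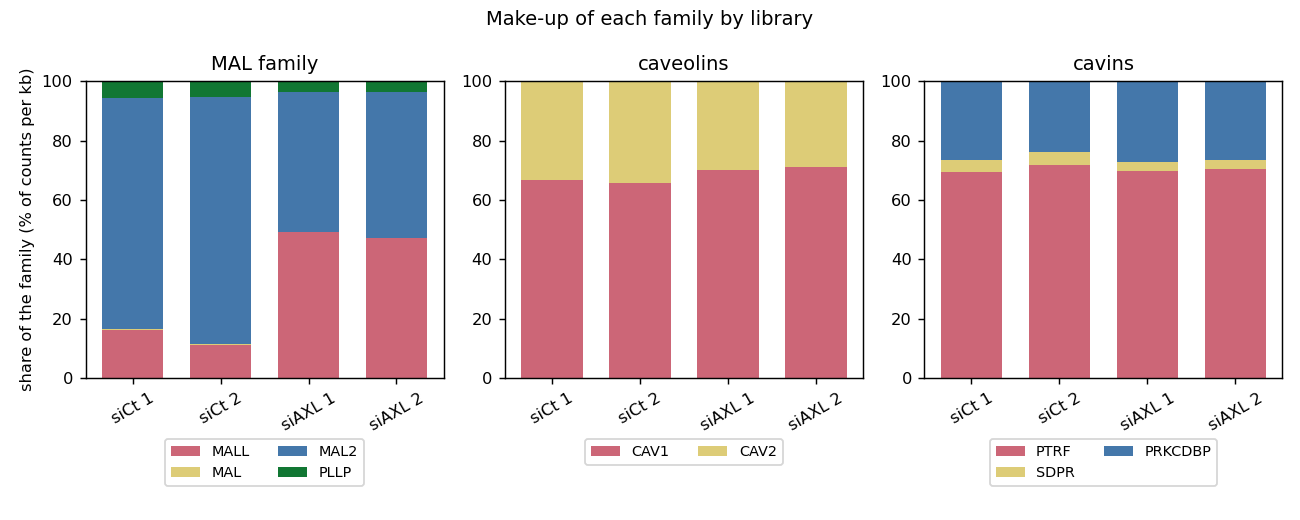
Share of each gene in the summed counts per kb of its family (y axis, percent, longest coding transcript) in each of the 4 libraries (x axis). The MALL segment goes from 16.3% and 11.2% in siCt to 49.1% and 47.2% in siAXL, while PTRF holds about the same part of the cavins.

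The profile of MALL over the 4 libraries was set beside those of the 12079 other tested genes with a mean of at least 100 normalized counts. By the root mean square difference of centred log2 values, the nearest were CHRDL1 (0.0607), SUSD5 (0.0639) and TMCO1 (0.0909). CHRDL1, an antagonist of bone morphogenetic proteins, had 254 and 189 normalized counts in siCt, and 702 and 730 in siAXL. SUSD5 had 104 and 75.9 in siCt, and 256 and 258 in siAXL. TMCO1, a calcium channel of the endoplasmic reticulum, had 1250 and 1060 in siCt, and 3389 and 3664 in siAXL. All 3 shared with MALL a lower value in siCt 2 than in siCt 1 and higher values in both siAXL libraries. Unlike MALL, which was lower in siAXL 2 than in siAXL 1, all 3 were higher in siAXL 2. The nearness describes likeness over 4 libraries and no more.

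Further genes of caveolae and rafts were followed in 4 lists, whose counts are read against the 10.8% higher and 7.91% lower over all genes. Of 17 caveola partners, 16 were tested, and 2 rose and 1 fell, with a median log2 fold change of -0.0013. The kinases FYN (0.32, SE 0.0679, limma adjusted p = 0.0216) and ABL1 (0.21, SE 0.0564, adjusted p = 0.0442), which phosphorylate or regulate caveolin-1, were the genes that rose. ABL1 lost its call without any single library (adjusted p from 0.0667 to 0.242), and FYN without siAXL 1 (0.111) or siAXL 2 (0.0546). PACSIN2, the F-BAR protein that bends the caveolar membrane, fell by 0.39 on the log2 scale (SE 0.0678, limma adjusted p = 0.0111), from 5914 and 6589 normalized counts in siCt to 4666 and 4858 in siAXL. No call of this list remained with the filter on low counts removed. Filamin A (FLNA), which ties caveolae to actin, had a log2 fold change of 0.060 (adjusted p = 0.575) and dynamin-2 (DNM2), which cuts them off, 0.085 (adjusted p = 0.298).

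Flotillins, stomatins, erlins and prohibitins form scaffolds at rafts and other membranes. Of 11 such genes 9 were tested, and their median log2 fold change was -0.068. FLOT2 rose, from 3836 and 3722 normalized counts in siCt to 5105 and 5528 in siAXL (log2 fold change 0.49, SE 0.0615, limma adjusted p = 0.00396). Its partner FLOT1 had -0.047 (adjusted p = 0.615). STOM, a stomatin that binds cholesterol, fell, from 875 and 1015 to 499 and 623 (log2 fold change -0.76, SE 0.126, limma adjusted p = 0.00968). It lost the call with no filter on low counts (0.0546).

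MARVEL domain proteins outside the MAL family share the membrane fold of MALL, MAL2 and PLLP. Of 23 such genes 17 were tested, and 3 rose and 0 fell by limma, with a median log2 fold change of 0.084. At the same adjusted threshold edgeR called 5 with TMM and 4 with DESeq2 size factors, and DESeq2 called 3. These 3 were not the same as in limma. DESeq2 called MARVELD1 and CMTM3 but gave SYNGR1 no adjusted p. Genes called only by edgeR or DESeq2 are not named here, and their directions are not given. At an unadjusted p under 0.05, 7 genes of this list passed in limma. In edgeR 8 passed with TMM and 7 with DESeq2 size factors, each of 17 as in limma. In DESeq2 4 passed, of 20 genes with a p-value. The share of all genes at the unadjusted threshold was not counted, so these numbers cannot be read as a result about the list. MARVELD1 rose from 909 and 723 normalized counts in siCt to 1524 and 1562 in siAXL (log2 fold change 0.93, SE 0.110, limma adjusted p = 0.00348). CMTM3, a chemokine-like factor, rose from 842 and 687 to 1221 and 1219 (0.68, SE 0.103, adjusted p = 0.00714). SYNGR1, a synaptogyrin, rose from 24.9 and 18.4 to 42.7 and 43.2 (0.97, SE 0.254, adjusted p = 0.0395), and lost the call with no filter on low counts (0.106) and without siCt 2 (0.118), siAXL 1 (0.134) or siAXL 2 (0.130). The abundant MYADM, a raft organizer, had a log2 fold change of 0.19 (adjusted p = 0.0584), and passed the threshold with TMM scaling (0.0391 in limma and 0.0399 in edgeR) and with the replicate block (1.6e-05).

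Proteins with a glycolipid (GPI) anchor are typical cargo of rafts. Of 24 listed genes 21 were tested, and 7 rose and 2 fell, with a median log2 fold change of 0.165. The genes that rose were NT5E (1.27), RECK (0.99), MSLN (0.80), CD59 (0.75), GPC1 (0.57), BST2 (0.35) and PRNP (0.28), with limma adjusted p-values from 0.000692 to 0.0286. CD59, the inhibitor of the complement pore and a cargo that MAL2 is known to carry in transcytosis, had 14392 and 14378 normalized counts in siCt, and 23321 and 25112 in siAXL. NT5E, the ectonucleotidase CD73, had 15634 and 14095 in siCt, and 35043 and 36343 in siAXL. CD55, which also restrains complement, fell by 0.32 on the log2 scale (SE 0.0646, limma adjusted p = 0.0172), from 9360 and 10328 normalized counts to 7720 and 7987. ALPP fell by 0.93 (SE 0.185, limma adjusted p = 0.0169), from 80.6 and 93.2 to 46.6 and 43.2, and its reads may be shared with near-identical phosphatase genes. BST2 and PRNP lost their calls without siAXL 2 (0.0654 and 0.154), as did ALPP (0.0584), and CD55 without siAXL 1 (0.0732). With no filter on low counts all 4 lost the call (0.0549 for BST2, 0.0925 for PRNP, 0.0562 for ALPP and 0.0667 for CD55).

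**Figure D4:**
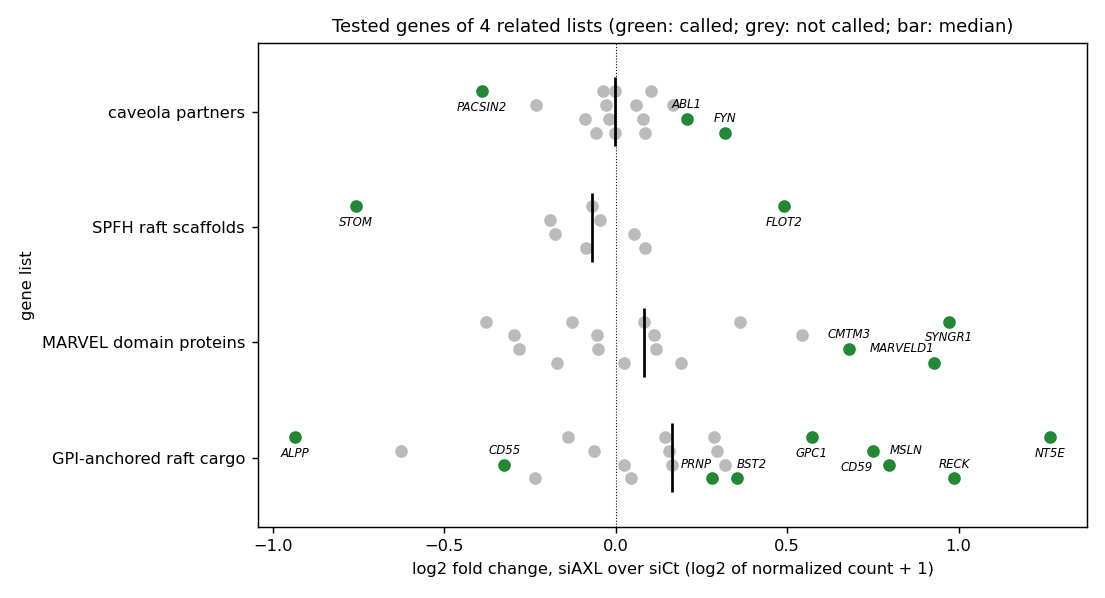
Log2 fold change of siAXL over siCt (x axis, on log2 of normalized count + 1) of each tested gene in 4 related lists (y axis), with called genes in green and named, and the list median as a bar. The called GPI-anchored genes run from ALPP at -0.93 to NT5E at 1.27, and the medians of the 4 lists lie between -0.068 and 0.165.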

How the data were processed

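RNA of MDA-MB-231 cells was sequenced in 4 libraries. The authors deposited 1 table of 63677 genes with a normalized count (signal) per gene and library, which is the read count divided by a DESeq2 size factor. The submitters' processing notes name CASAVA 1.8, TopHat2 2.0.10, HTSeq 0.5.3, DESeq2 1.4.5 and GRCh37. The table also deposited the authors' log2 fold changes, standard errors and Wald statistics (score) and p-values, and none of these was used. Unmapped sample columns numbered 0.

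In each library 100% of values were whole multiples of 1 read (tolerance 0.01), so reads were recovered. Replicates differed by more than sampling noise (chi-square per gene 21.6 in siCt and 19.6 in siAXL, 35.6 and 42.3 across groups). Genes passing edgeR's filterByExpr were tested with limma 3.58.1 (intensity trend, R 4.3.3) on log2(normalized count + 1), without covariates. Alternatives used pseudocounts 0.5 and 8, no filter, other scaling, edgeR 4.0.16, DESeq2 1.42.0, a replicate block, and each library left out. The fits were tested on simulated counts. Lengths, 3′ untranslated regions and overlaps came from GENCODE 29, and promoters from RefSeq.

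The members and lists were chosen with earlier results of these data known. The text names all members, AXL and the line's markers, every called gene of the 4 lists, at most the 3 most abundant genes of each list that were not called, and the 3 profiles nearest to MALL.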

Additional observations from a re-analysis of the deposited data

How the results depend on the processing

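Over the 13 alternatives, the 8 tested genes other than MALL gave 104 values. None changed sign, 93 stayed on the same side of the threshold, 9 lost a call (PTRF, PRKCDBP and EHD2) and 2 gained it (SDPR, with library size scaling and with the replicate block at an adjusted p of 0.000912). The number of these 8 genes called was 6, and ran from 3 to 6 with 1 library left out. The replicate numbers of the labels were not stated to pair the libraries, and same-numbered libraries deviated together with a correlation of 0.27 across 16064 genes. Blocking on the number raised the calls over all genes from 3006 to 7310, of the members from 6 to 7, of caveola partners from 3 to 5, of raft scaffolds from 2 to 4, of MARVEL proteins from 3 to 10 and of GPI-anchored cargo from 9 to 14. With no filter on low counts, limma called 1097 genes, 0 caveola partners (3 at an unadjusted p under 0.05), 1 raft scaffold and 5 GPI-anchored genes, and 27108 genes were then tested. The share of all genes at that unadjusted threshold was not counted. The edgeR fits, which kept the filter, and DESeq2, with its own, called 3 caveola partners each. MARVEL calls rose to 5 with edgeR and TMM, and fell to 2 with no filter. With 1 library left out, calls over all genes ran from 1301 to 3900, those of caveola partners from 1 to 3, of raft scaffolds from 2 to 3, of MARVEL proteins from 2 to 6 and of GPI-anchored genes from 6 to 10. With 2 libraries per group, no permutation of the labels gives a two-sided p under 0.333, and the calls depend on variances that limma moderates over genes. Where leaving out a library left 1 in a group, it was assumed to vary like the other group.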
